A study of Mus musculus with 24 samples.

Results

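The genes described here are 10 genes of cell-cell junctions and epithelial surfaces measured in blood-forming cells of the mouse: Cldn5, Cldn15, Lsr, Epcam, Evpl, Ptprf, Cdh1, Tjp1, Ocln and F11r. They are 10 of the 17741 genes named on the arrays, and each was matched by symbol without regard to case and read from the probe that was brightest on average over the 24 arrays. The genes were chosen from measured values of these same arrays, in which several of them were higher in KO-labelled mice. The KO minus WT values of these genes are therefore a description without a test. The comparison of the WT-labelled populations was not the stated ground of the choice, but the choice was made with earlier results of these arrays known.

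The study compared bone marrow cells of C57BL/6 mice labelled wild type (WT) or knockout (KO) for BAP1, a nuclear deubiquitinase of histone H2A. Mice were injected with tamoxifen to delete Bap1 throughout the body, and no source used here gives the Cre driver. RNA was taken from lineage-negative, Sca1-positive, Kit-positive cells (LSK cells, enriched for hematopoietic stem cells) or from lineage-negative, Sca1-negative, Kit-positive myeloid progenitors (MP), and was amplified, labelled with Cy5 and hybridised to single-colour arrays. The 4 groups were WT LSK (mice 1 and 3), KO LSK (mice 2 and 4), WT MP (mice 5 and 6) and KO MP (mice 7 and 8), with 3 arrays per mouse, and no mouse gave both populations. All values are log2 expression as deposited. A level is the mean of the 3 arrays of a mouse, a change is a difference of group means with its standard error (SE) from limma over the 8 mice, and a gene passed when its Benjamini-Hochberg adjusted p was under 0.05.

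Across probes, the median r was 0.994 between arrays of a mouse and 0.987 between mice of a group. Arrays have no count depth, and the 2 mice per group limit the precision. The single Bap1 probe, whose position in the gene was not available, did not fall with the KO label, with a change of 0.40 ± 0.18 in LSK cells and 0.20 ± 0.18 in myeloid progenitors, so that every KO minus WT direction below rests on the labels. Mice 1 and 5, both WT-labelled, had a signal of the Y-linked gene Kdm5d (7.88 and 8.15), and the other 6 mice lay between 5.93 and 6.02. Kit, the stem cell factor receptor that both sorts require, was bright in all 8 mice (12.76 to 13.49), and the pan-leukocyte gene Ptprc lay between 10.45 and 11.32. The mean of 6 stem cell markers was 11.39 to 11.97 in LSK mice and 9.03 to 9.39 in MP mice, and Ly6a, which encodes Sca1, was not analysed here.

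Tight junctions seal the space between neighbouring epithelial or endothelial cells: claudins form the strands, occludin (Ocln) and junctional adhesion molecule A (F11r) lie beside them, and ZO-1 (Tjp1) ties the strand to actin. At corners where 3 cells meet, the lipolysis-stimulated lipoprotein receptor (Lsr, angulin-1) marks the tricellular junction. E-cadherin (Cdh1) holds adherens junctions together, envoplakin (Evpl) links desmosomes and the cornified envelope to keratin, EpCAM (Epcam) is an epithelial surface glycoprotein, and Ptprf (LAR) is a receptor tyrosine phosphatase found at cell contacts. Blood progenitors form no epithelium. Some of these genes are nevertheless known from blood or vessels, among them F11r on platelets and leukocytes and Cldn5 as the main claudin of endothelium.

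The sequences just upstream of 4 genes are shown because these genes, with Evpl, had the largest KO minus WT values: Cldn5 was far higher in KO LSK cells, the KO mice of Lsr and Epcam lay above the WT mice in both populations, and Ptprf reached about the same level in both KO-labelled populations. Each run is the 250 bases before the annotated start, written 5′ to 3′ on the strand of the gene, from RefSeq promoter records of the build GRCm38.p6. Capitals mark CAGGTG or its reverse complement CACCTG, an E-box form bound by factors of the Snail and Zeb families, and GGGCGG or its reverse complement CCGCCC, the GC box bound by Sp1-type factors. The windows are chr16:18776597-18776846 (plus strand) for Cldn5, chr7:30973470-30973719 (minus strand) for Lsr, chr17:87635729-87635978 (plus strand) for Epcam and chr4:118291398-118291647 (minus strand) for Ptprf.
Cldn5: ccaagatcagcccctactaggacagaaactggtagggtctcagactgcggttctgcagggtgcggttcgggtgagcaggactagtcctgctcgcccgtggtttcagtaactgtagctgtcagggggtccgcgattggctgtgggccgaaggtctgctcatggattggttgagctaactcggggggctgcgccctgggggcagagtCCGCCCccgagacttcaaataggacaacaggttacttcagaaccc
Lsr: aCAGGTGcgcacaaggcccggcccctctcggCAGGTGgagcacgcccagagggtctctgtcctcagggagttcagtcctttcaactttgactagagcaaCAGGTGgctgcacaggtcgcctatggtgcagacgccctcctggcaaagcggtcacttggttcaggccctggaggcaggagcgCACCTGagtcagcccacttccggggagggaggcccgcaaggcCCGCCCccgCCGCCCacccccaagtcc
Epcam: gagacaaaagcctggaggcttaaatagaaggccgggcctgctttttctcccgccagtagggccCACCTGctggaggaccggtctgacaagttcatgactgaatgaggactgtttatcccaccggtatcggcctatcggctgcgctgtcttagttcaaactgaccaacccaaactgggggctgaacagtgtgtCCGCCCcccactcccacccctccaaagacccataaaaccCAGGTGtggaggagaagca
Ptprf: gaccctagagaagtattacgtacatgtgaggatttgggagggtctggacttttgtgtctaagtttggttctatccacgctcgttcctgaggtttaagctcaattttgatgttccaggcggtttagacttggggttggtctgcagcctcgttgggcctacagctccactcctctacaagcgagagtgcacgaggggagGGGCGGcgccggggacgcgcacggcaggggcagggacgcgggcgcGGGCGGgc

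The Lsr window held 4 of the E-box letters, the farthest 249 bases before the start and the nearest 69, and the Epcam window held 2, at 187 and 19 bases. The Cldn5 and Ptprf windows held none. GC box letters stood once in the Cldn5 window, 45 bases before the start, once in that of Epcam, at 58, and in 2 places in those of Lsr (27 and 18) and Ptprf (53 and 8). Of all 32851 windows of the same length, 17.2% held the E-box letters and 32.7% the GC box letters. RefSeq windows were matched for 8 of the 10 genes, as 9 windows because Ocln has a second start. The E-box letters also stood in the F11r window, 122 bases before the start, and in 1 of the Ocln windows, at 213 and 68 bases, while those of Cldn15 and Tjp1 held none. GC box letters stood in all 9 windows. The GC content of these windows was 56.4% to 69.2%, above the median of 52.4% over all windows, and the 2 Ocln windows overlap in part. A match is a description of letters and not a measured site, and the arrays measured no binding.

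In LSK cells, Cldn5, Lsr, Ptprf, Evpl and Epcam were higher in the KO-labelled mice by 2.12 to 3.60 on the log2 scale. In myeloid progenitors Ptprf, Evpl, Epcam and Lsr were higher by 1.25 to 3.39, and Cldn5 differed by 0.48 ± 0.24. The remaining 5 genes gave changes between -0.52 and 1.26 in LSK cells and between -0.18 and 0.26 in myeloid progenitors. Of the 10 genes, 5 passed the threshold in LSK cells, each as higher in KO mice, where 1.74% of all 17741 genes passed as higher and 2.9% as lower. In myeloid progenitors 3 passed, each as higher, beside 0.908% and 1.74% of all genes. The median change of the 10 genes was 1.69 in LSK cells and 0.37 in myeloid progenitors, and that of all genes was 0.02 and 0.0. Because these contrasts served to choose the genes, nothing is read from the shares.

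**Figure D1:**
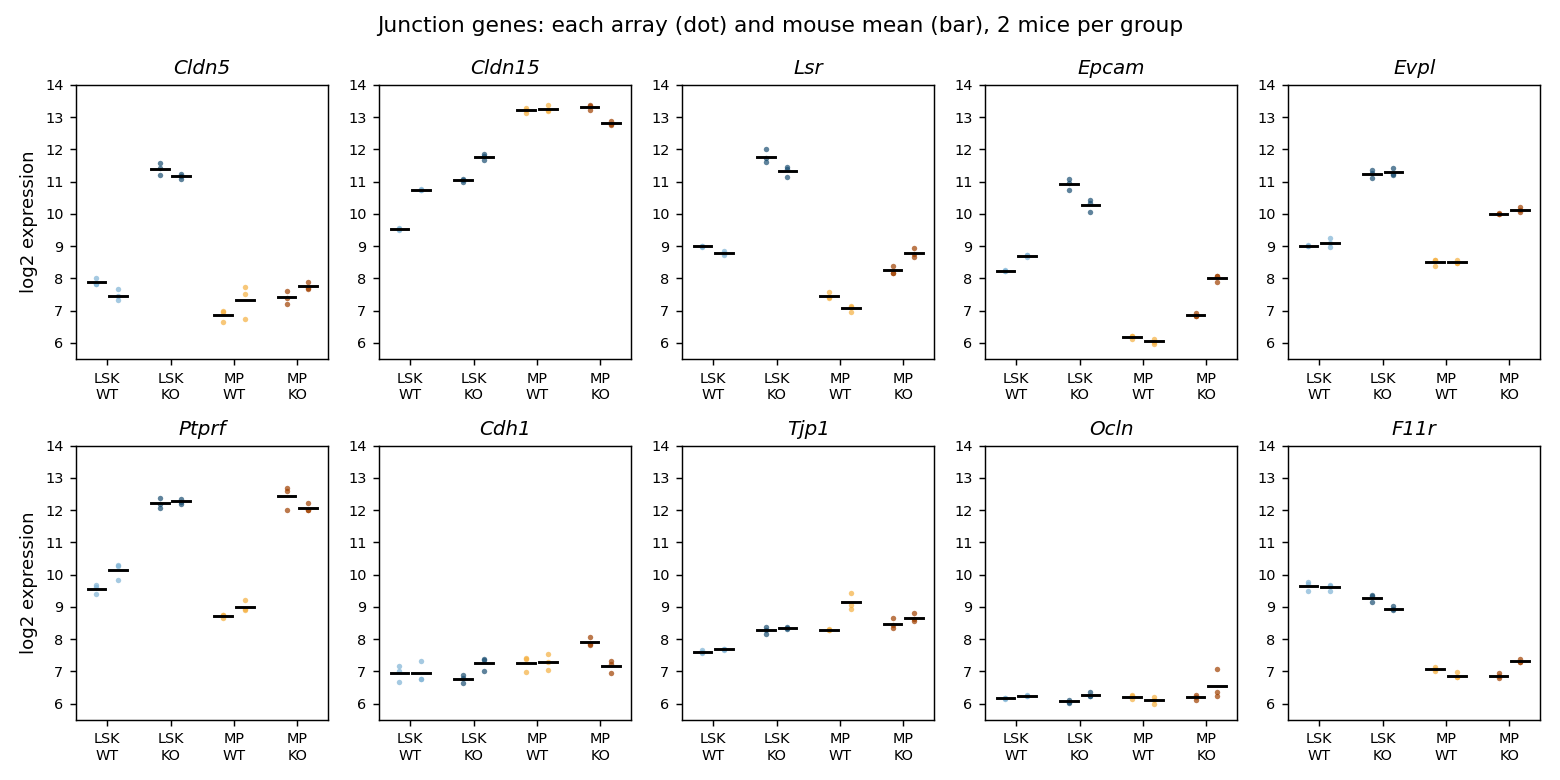
Log2 expression (vertical axis) of the 10 genes in the 4 groups (horizontal axis), with each of the 3 arrays of a mouse as a dot and the mouse mean as a bar, 2 mice per group. Cldn5 stands at 11.40 and 11.17 in KO LSK cells and between 6.87 and 7.90 in the other 6 mice, Ptprf is near 12 in both KO-labelled populations, and Ocln stays near the low end of the scale in all mice.

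The claudins differed from each other. Cldn5 read 7.90 and 7.47 in WT LSK mice and 11.40 and 11.17 in KO LSK mice, which is a change of 3.60 ± 0.24, or 12.1-fold. In myeloid progenitors it read 6.87 and 7.33 in WT mice and 7.41 and 7.76 in KO mice, for 0.48 ± 0.24. KO mice lay above WT mice in both populations, by a gap of 3.27 between the nearest mice in LSK cells and of 0.08 in myeloid progenitors. From the highest to the lowest group mean the order was KO LSK (11.29), WT LSK (7.68), KO MP (7.58) and WT MP (7.10), and the mice of WT LSK and KO MP overlapped.

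Cldn15, a claudin that forms cation pores in the intestine, was brightest in myeloid progenitors. It read 13.22 and 13.26 in WT MP mice and 13.32 and 12.81 in KO MP mice, which overlapped. In LSK cells the WT mice read 9.54 and 10.75 and the KO mice 11.04 and 11.77, a change of 1.26 ± 0.40 that did not pass. The KO LSK mice both lay above the WT LSK mice, but by only 0.29, and the gap of 1.21 between the WT LSK mice was the widest of any group among the 10 genes. Without mouse 3 the LSK change was 1.86 and passed. Erythroid markers were read beside these levels. The mean of the 7 measured genes of that list was 8.13 in mouse 1, 8.75 in mouse 3, 8.52 in mouse 2 and 9.07 in mouse 4, so that the lowest and the highest LSK mouse were the same as for Cldn15 and the middle pair was in the other order. In the MP mice the list mean was 9.68 and 10.24 (WT) and 9.60 and 10.27 (KO), and mouse 8, with the highest of these, had the lowest Cldn15 level of the MP mice. Between the WT populations, 5 of the 7 erythroid genes passed as lower in LSK cells, the direction of Cldn15, beside 5.46% of all genes. The 1 that passed as higher, beside 8.08% of all genes, was Slc4a1, the anion exchanger of red cells (11.54 against 9.84). In LSK cells 0 of the 7 erythroid genes passed by limma (1 at an unadjusted p under 0.05), and their part in the Cldn15 level was not tested. In sorted bulk cells, more cells of a type and more RNA of a gene per cell cannot be told apart, which holds for every gene here.

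Lsr read 8.99 and 8.79 in WT LSK mice and 11.78 and 11.33 in KO LSK mice, a change of 2.66 ± 0.26 (6.33-fold). In myeloid progenitors the WT mice read 7.47 and 7.07 and the KO mice 8.25 and 8.79, a change of 1.25 ± 0.26 (2.38-fold). KO mice lay above WT mice in both populations, and KO MP mice (mean 8.52) overlapped with WT LSK mice (mean 8.89). The myeloid progenitor call was lost without mouse 5 (1.45), mouse 6 (1.05) or mouse 8 (0.97), without mice 1 and 5 (1.45), with the mean of both Lsr probes (0.75) and without the trend and robust options. The second Lsr probe lay near the low end of the scale, with group means of 6.26 to 6.62, and changed by -0.02 ± 0.11 in LSK cells and 0.25 ± 0.11 in myeloid progenitors.

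Epcam read 8.24 and 8.71 in WT LSK mice and 10.92 and 10.27 in KO LSK mice, a change of 2.12 ± 0.38 (4.36-fold). In myeloid progenitors the WT mice read 6.18 and 6.05, close to the lowest values on the arrays, and the KO mice 6.86 and 8.02. The change there was 1.33 ± 0.38 and did not pass, and since the WT level lies at the low end of the scale it can understate the difference. All 4 group means stood apart in the order KO LSK (10.60), WT LSK (8.47), KO MP (7.44) and WT MP (6.12). The KO MP mice were 1.16 apart, and without mouse 7 the change was 1.90 and passed, while the LSK call was lost without mouse 1 (1.89) or mouse 2 (1.80), without mice 1 and 5 (1.89), with the Kdm5d level as a covariate (2.05) and without the trend and robust options. A second, dimmer Epcam probe changed by 0.89 ± 0.11 in LSK cells and by 0.10 ± 0.11 in myeloid progenitors, where its levels were 6.04 and 6.14.

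Evpl had the smallest spread between mice of a group among the 10 genes (SD 0.052). It read 9.02 and 9.10 in WT LSK mice and 11.25 and 11.29 in KO LSK mice, a change of 2.21 ± 0.20 (4.63-fold). In myeloid progenitors the WT mice both read 8.51 and the KO mice 10.01 and 10.13, a change of 1.56 ± 0.20 (2.95-fold). The 4 groups did not overlap, and the KO MP mean of 10.07 lay above the WT LSK mean of 9.06. A second Evpl probe gave 1.79 ± 0.20 in LSK cells and 1.10 ± 0.20 in myeloid progenitors. On that probe the WT groups stood in the other order, WT LSK at 7.66 and WT MP at 7.80, a difference of -0.14 ± 0.20 that did not pass.

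Ptprf was the only one of the 10 genes with a KO minus WT change above 2 in both populations. The WT LSK mice read 9.57 and 10.13 and the KO LSK mice 12.21 and 12.27, a change of 2.39 ± 0.24 (5.24-fold). In myeloid progenitors the WT mice read 8.72 and 9.01 and the KO mice 12.43 and 12.08, a change of 3.39 ± 0.24 (10.5-fold). KO LSK and KO MP mice overlapped, with group means of 12.24 and 12.25, although the WT populations differed by 0.98.

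The classical components of epithelial junctions gave small changes. Cdh1 read 6.95 and 6.94 in WT LSK mice, 6.78 and 7.25 in KO LSK mice, 7.26 and 7.29 in WT MP mice and 7.91 and 7.17 in KO MP mice, so that KO and WT overlapped in both populations. The Cdh1 changes were 0.07 ± 0.23 (95% confidence interval -0.45 to 0.59) and 0.26 ± 0.23 (-0.26 to 0.78). Ocln read 6.17 and 6.25 in WT LSK mice, 6.07 and 6.27 in KO LSK mice, 6.22 and 6.11 in WT MP mice and 6.20 and 6.56 in KO MP mice. It thus lay near the low end of the scale in every mouse, with overlapping groups and changes of -0.04 ± 0.12 and 0.21 ± 0.12, and a difference below the reach of the probe would not be seen.

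Tjp1 read 7.61 and 7.68 in WT LSK mice and 8.27 and 8.36 in KO LSK mice, which did not overlap, for 0.66 ± 0.26. In myeloid progenitors the WT mice, at 8.29 and 9.14, enclosed the KO mice at 8.48 and 8.66, for -0.15 ± 0.26. F11r went the other way in LSK cells: the WT mice read 9.66 and 9.61 and the KO mice 9.29 and 8.95, for -0.52 ± 0.22. Its myeloid progenitor levels were 7.07 and 6.87 in WT mice and 6.86 and 7.31 in KO mice, which overlapped, for 0.12 ± 0.22. Neither gene passed in either population.

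A statement that a change belongs to LSK cells needs the difference between the KO minus WT changes of the populations, LSK minus MP. This difference passed for 11 of 17741 genes (0.062%), and of the 10 genes only Cldn5 was among them, at 3.12 ± 0.34 (95% confidence interval 2.36 to 3.87). It ranked first of the 11 by adjusted p, a place that is not independent of how the gene was chosen, and it did not pass in a fit without the trend and robust options. Lsr, Evpl and Ptprf lay past the threshold in both populations, in contrasts that served to choose them, and their differences were 1.41 ± 0.37, 0.65 ± 0.28 and -1.0 ± 0.34. None of these differences passed, but their unadjusted intervals (0.6 to 2.23, 0.04 to 1.26 and -1.75 to -0.24) exclude 0. At an unadjusted limma p under 0.05 the difference was above 0 for 5 of the 10 genes and below 0 for 1. These values too are not independent of the choice of the genes. Epcam passed in LSK cells alone. By its brightest probe the difference of 0.80 ± 0.53 had an interval from -0.42 to 2.01 that includes 0, and KO mice lay above WT mice in both populations. By the second, dimmer Epcam probe the difference was 0.79 ± 0.16 (0.43 to 1.14), which did not pass. On that probe KO and WT mice overlapped in myeloid progenitors, near the low end of the scale. Cldn15 (1.44 ± 0.57), Tjp1 (0.81 ± 0.37) and F11r (-0.63 ± 0.31) had KO and WT mice apart in LSK cells and overlapping in myeloid progenitors, and none of these differences passed. The Lsr value in myeloid progenitors lost its call in several alternatives, as given above.

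**Figure D2:**
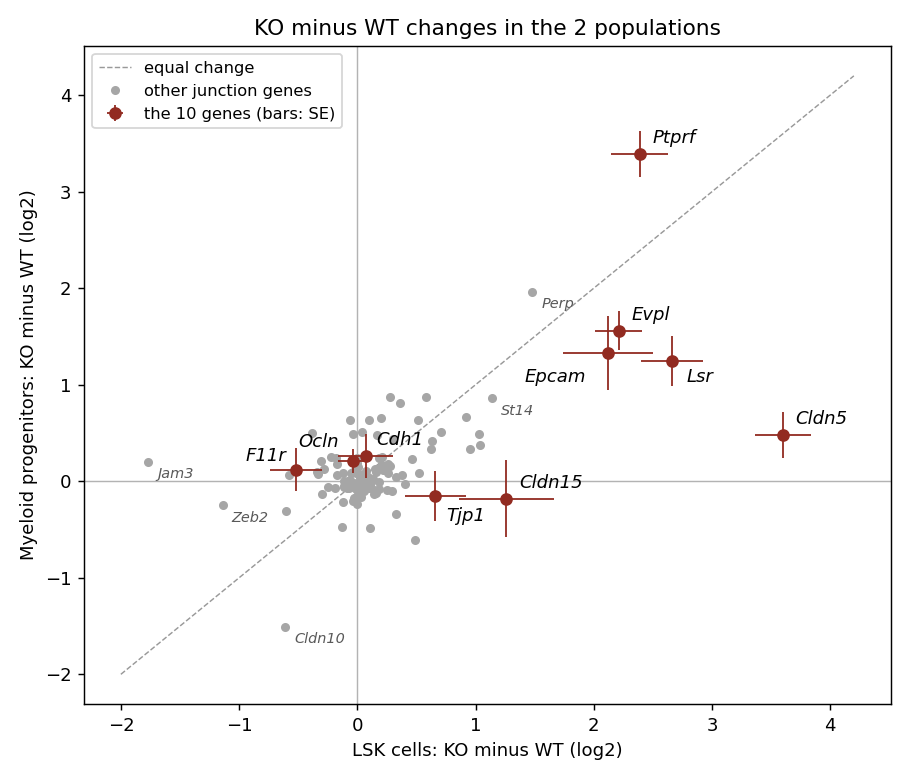
KO minus WT change (log2) in LSK cells (horizontal) against myeloid progenitors (vertical), with the 10 genes in red and their SE as bars, the 118 other junction genes in grey, and the dashed line at equal change. Cldn5 lies far right at 3.60 and 0.48, Ptprf lies above the line at 2.39 and 3.39, and Cdh1, Ocln, F11r and Tjp1 lie among the grey points.

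The same differences can be read as the gap between the populations (LSK minus MP) under each label. For Cldn5 it was 0.58 in WT mice and 3.70 in KO mice, the one pair whose difference passed. For Lsr it was 1.62 and 3.03, for Ptprf 0.98 and -0.02, for Cldn15 -3.09 and -1.66 and for F11r 2.67 and 2.03, and none of these 4 differences passed.

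**Figure D3:**
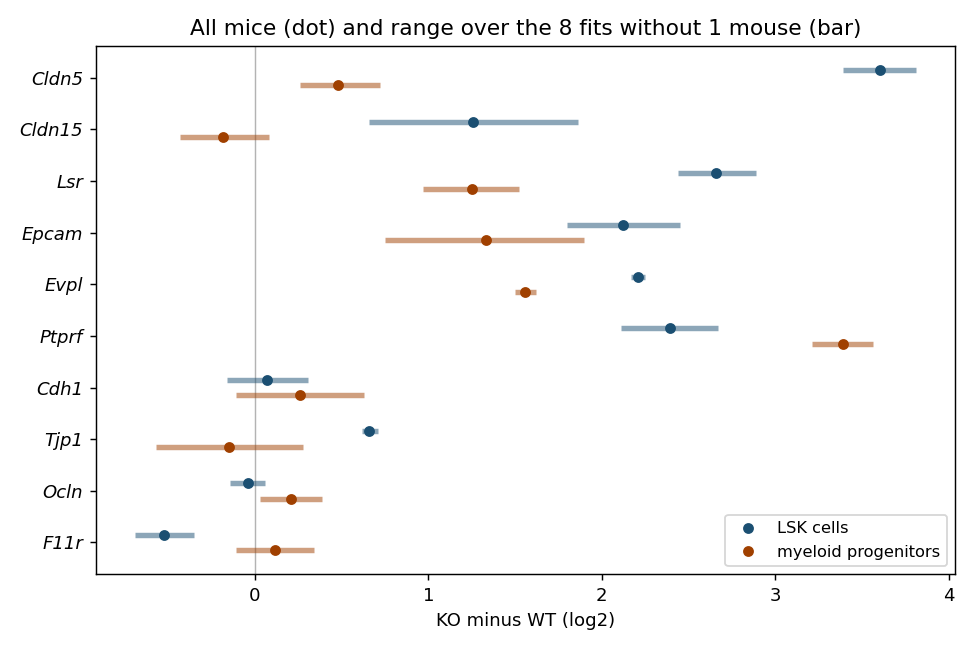
KO minus WT change (log2, horizontal) of each of the 10 genes, with all mice as a dot and the range over the 8 fits that each leave out 1 mouse as a bar, for LSK cells in blue and myeloid progenitors in brown. The Evpl bars are narrow (2.17 to 2.25 and 1.50 to 1.62), and those of Cldn15 in LSK cells (0.66 to 1.86) and Epcam in myeloid progenitors (0.75 to 1.90) are the widest.

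Between the WT-labelled populations, 4 of the 10 genes were higher in LSK cells and 2 were lower, beside 8.08% of all genes higher and 5.46% lower. This comparison shares the WT mice with the KO minus WT contrasts, and since earlier results were known when the genes were chosen, its p-values are not those of genes picked blindly. F11r was higher in LSK cells by 2.67 ± 0.22 (6.34-fold, limma adjusted p = 7.83e-05), with 9.66 and 9.61 against 7.07 and 6.87. Epcam was higher by 2.36 ± 0.38 (limma adjusted p = 0.00492) and Lsr by 1.62 ± 0.26 (limma adjusted p = 0.00267), both with the LSK mice above the MP mice. These calls rest on the brightest probes. The second, dimmer probes, near the low end of the scale, gave 0.29 ± 0.11 for Epcam and -0.09 ± 0.11 for Lsr. Neither passed, and the Lsr mice overlapped on that probe. Ptprf was higher by 0.98 ± 0.24 (limma adjusted p = 0.0232), a call that was lost without mouse 3 (0.70) or mouse 5 (0.83). Cldn15 was lower in LSK cells by 3.09 ± 0.40 (8.54-fold) and passed (limma adjusted p = 0.0024).

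Tjp1 was also lower in LSK cells, with a change of -1.07 ± 0.26 (limma adjusted p = 0.0208), and its call was lost without mouse 1 (-1.03), mouse 3 (-1.10) or mouse 6 (-0.64). Cldn5 (0.58 ± 0.24), Evpl (0.55 ± 0.20), Cdh1 (-0.33 ± 0.23) and Ocln (0.04 ± 0.12) did not pass. Without mice 1 and 5, the mice with the Kdm5d signal, only F11r, Cldn15 and Tjp1 passed, and the values of Epcam and Lsr were 2.66 and 1.72.

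**Figure D4:**
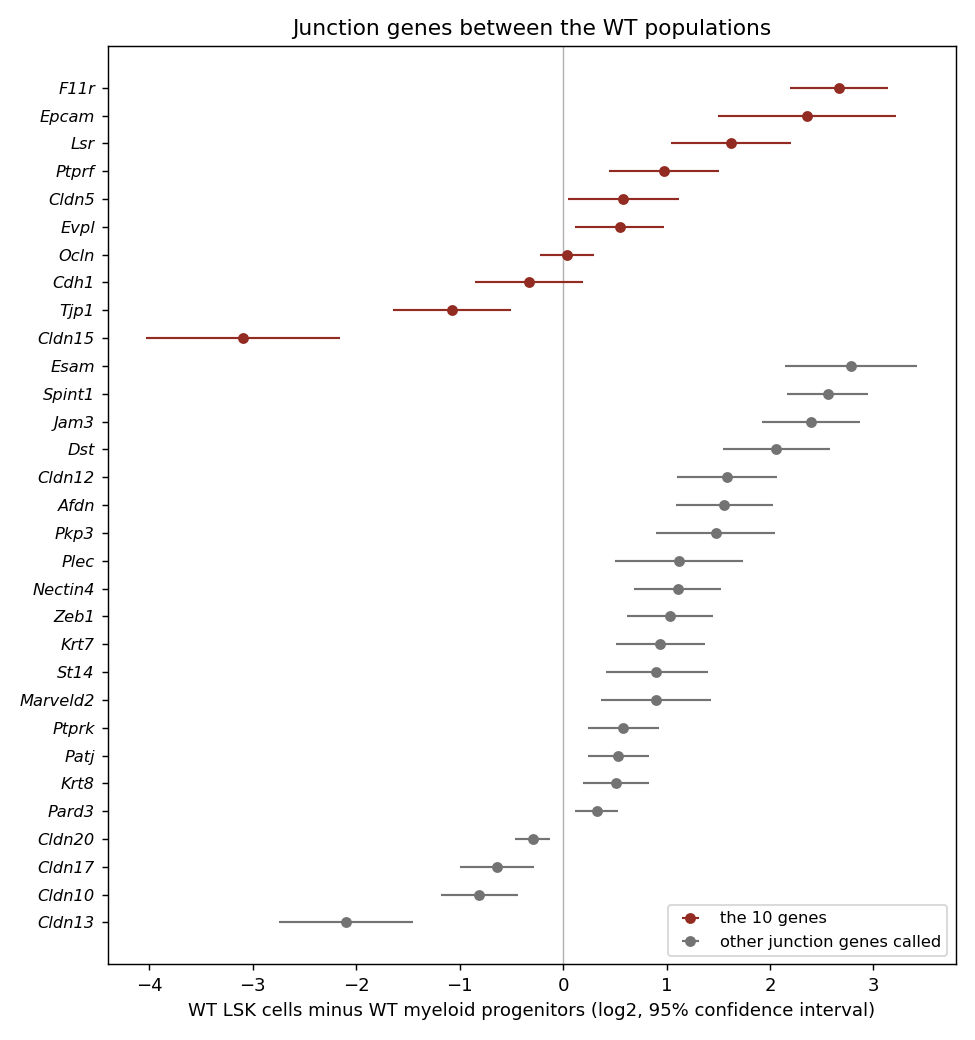
WT LSK minus WT MP (log2, horizontal) with 95% confidence intervals, for the 10 genes in red and for the 21 other junction genes that passed in grey. Cldn15 lies at -3.09 and F11r at 2.67, and 17 of the 21 grey genes lie to the right of 0, which means higher in LSK cells.

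Of 118 other measured genes of tight, adherens and desmosomal junctions, LAR phosphatases, epithelial identity and repressors of Cdh1, 6 rose (5.08%) and 4 fell (3.39%) in KO LSK cells, with a median change of 0.05, beside the 1.74% and 2.9% of all genes given above. In KO myeloid progenitors 2 rose (1.69%) and 1 fell (0.847%), with a median of 0.04, beside 0.908% and 1.74% of all genes. The difference between the populations passed for 0 of the 118 by limma (13 at an unadjusted p under 0.05), and for 1 without mouse 3 and 2 without mouse 4. With 1 mouse left out, between 3 and 13 of the 118 genes passed in LSK cells, and without mouse 1, 2 or 3 there were 4, 4 and 3.

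In the desmosome and plakin list, 1 of 15 genes rose in each population, and it was Perp, a desmosomal tetraspan membrane protein and target of p53. Perp read 8.47 and 8.51 in WT LSK mice against 10.08 and 9.86 in KO LSK mice, and rose by 1.48 ± 0.20 (limma adjusted p = 0.00241). The myeloid progenitor levels were 8.07 and 7.91 in WT mice and 9.95 and 9.94 in KO mice, where it rose by 1.96 ± 0.20 (limma adjusted p = 0.000695). Perp kept its call in both populations in every alternative run. Plec and Macf1, the brightest genes of the list, changed by 1.03 ± 0.28 and -0.34 ± 0.26 in LSK cells and did not pass.

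Among 21 tight junction partners, 1 rose and 1 fell in LSK cells. Jam3, which encodes junctional adhesion molecule C, read 9.37 and 8.97 in WT LSK mice and 7.48 and 7.33 in KO LSK mice. It fell by 1.77 on the log2 scale (SE 0.22, limma adjusted p = 0.0015), while its myeloid progenitor mice overlapped (change 0.20 ± 0.22) and the difference between populations, -1.97 ± 0.31, did not pass (limma adjusted p = 0.0621). The KO LSK mean of 7.41 stood nearer to the WT MP mean of 6.77 than to the WT LSK mean of 9.17. Cgnl1 (paracingulin) rose by 0.62 ± 0.14 in LSK cells and Cxadr, a junctional receptor for coxsackie and adenoviruses, by 0.87 ± 0.20 in myeloid progenitors, and both calls were lost in most of the fits without 1 mouse.

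Among 18 adherens junction genes, Nectin1 rose by 0.71 ± 0.14 and Vezt (vezatin) fell by 0.60 (SE 0.11) in LSK cells, both from levels under 7, and 0 of 18 passed by limma in myeloid progenitors (3 at an unadjusted p under 0.05). The Nectin1 call was lost without mouse 1, 2 or 3, and the Vezt call without mouse 2 or 3. Ctnnb1 (beta-catenin) and Ctnna1 (alpha-catenin), the brightest of the list, changed by -0.18 ± 0.19 and -0.03 ± 0.19 in LSK cells. Of the 11 LAR phosphatases and partners 0 passed by limma in either population, with 1 in LSK cells and 2 in myeloid progenitors at an unadjusted p under 0.05. Ptprs, the brightest of them and a close relative of Ptprf, changed by 0.63 ± 0.26 in LSK cells and 0.42 ± 0.26 in myeloid progenitors.

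Of 24 genes of epithelial identity, 3 rose and 1 fell in LSK cells, and 0 passed by limma in myeloid progenitors (4 at an unadjusted p under 0.05). St14, which encodes the membrane protease matriptase, rose by 1.14 ± 0.23, from 9.84 and 9.40 in WT to 10.82 and 10.71 in KO LSK mice. In myeloid progenitors it changed by 0.86 ± 0.23, which did not pass. Ovol2, a transcription factor of epithelial cells that represses Zeb genes, rose by 0.95 ± 0.18, from 6.26 and 6.23, at the low end of the scale, to 7.51 and 6.88. Muc1 (0.33 ± 0.08) and Grhl1 (-0.28 ± 0.07) passed with changes near the low end of the scale. The St14 call was lost without mouse 2 or 3, that of Ovol2 without mouse 1 or 3, and those of Muc1 and Grhl1 in 7 or more of the 8 fits without 1 mouse.

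Among 8 repressors of Cdh1, 1 fell in LSK cells and 0 passed by limma in myeloid progenitors, also 0 at an unadjusted p under 0.05. Zeb2, a zinc finger repressor of E-cadherin that blood progenitors also express, read 8.54 and 8.67 in WT LSK mice and 7.33 and 7.61 in KO LSK mice, and fell by 1.14 (SE 0.21, limma adjusted p = 0.0126). The Zeb2 change in myeloid progenitors was -0.25 ± 0.21. The LSK call was lost without mouse 1 (-1.20), 2 (-1.0) or 3 (-1.07). Tcf3 and Zeb1, the brightest of the list, changed by 0.28 ± 0.23 and -0.31 ± 0.19.

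Of the 21 other claudins, 0 passed by limma in LSK cells (1 at an unadjusted p under 0.05) and 1 fell in myeloid progenitors. Cldn10 read 8.27 and 8.51 in WT MP mice and 6.88 and 6.89 in KO MP mice, and fell by 1.51 (SE 0.17, limma adjusted p = 0.000966), a call kept in every alternative run. In LSK cells it changed by -0.61 ± 0.17 and did not pass. The brightest other claudins, Cldn12 and Cldn13, changed by -0.38 ± 0.22 and 0.49 ± 0.30 in LSK cells and by 0.50 ± 0.22 and -0.61 ± 0.30 in myeloid progenitors.

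Between the WT populations, 17 of the 118 genes were higher in LSK cells (14.4%) and 4 were lower (3.39%), beside 8.08% and 5.46% of all genes. The ones named here were picked after their values were seen. Esam, an adhesion molecule of endothelium and stem cells, was higher in LSK cells by 2.78 ± 0.29, Spint1, an inhibitor of matriptase, by 2.56 ± 0.18, Jam3 by 2.40 ± 0.22 and Dst (dystonin) by 2.06 ± 0.23. Cldn13, a claudin of erythroid cells in the mouse, was lower in LSK cells (-2.10 ± 0.30), the same direction as Cldn15. Without mouse 1 the count was 9 in all, and without mouse 6 it was 13.

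Markers of cells that normally carry such junctions were read in the same arrays. The 10 measured epithelial markers include the keratins Krt8 and Krt18 and the splicing factor gene Esrp1. Of these, 1 passed in LSK cells (Ovol2, higher in KO mice), beside 1.74% of all genes, and 2 had an unadjusted p under 0.05. In myeloid progenitors 0 passed by limma (1 at an unadjusted p under 0.05). The mean of the list lay at 6.57 and 6.57 in WT LSK mice, 6.80 and 6.71 in KO LSK mice, and between 6.53 and 6.64 in the MP mice, near the low end of the scale in every mouse. Krt18 read 7.23 and 6.84 in WT LSK mice and 6.88 and 7.10 in KO LSK mice, which overlapped. Krt8 read 6.98 and 6.77 in WT LSK mice and 7.40 and 7.15 in KO LSK mice, which were apart (change 0.40 ± 0.14). In myeloid progenitors Krt18 changed by 0.49 ± 0.16, with the KO mice above the WT mice, and Krt8 by -0.03 ± 0.14. None of these keratin changes passed.

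Of 14 endothelial markers, 1 rose and 2 fell in KO LSK cells, beside 1.74% and 2.9% of all genes. The mean of the list was 9.11 and 8.98 in WT LSK mice and 9.01 and 8.70 in KO LSK mice. Cdh5, the cadherin of endothelium, read 6.50 and 6.53 in WT LSK mice and 7.39 and 6.68 in KO LSK mice, and Kdr, a receptor for vascular endothelial growth factor, 6.98 and 6.96 against 7.11 and 7.08. Flt1 rose from 6.90 and 6.92 to 7.87 and 7.62. Emcn (endomucin) fell from 10.41 and 10.18 to 7.49 and 7.08, and Tek, the angiopoietin receptor of endothelium and stem cells, from 8.50 and 8.60 to 6.96 and 6.67. Mouse 2, with the higher Cdh5, also had the higher Cldn5 level of the KO LSK mice, 11.40 against 11.17. The SD between arrays of a mouse was 0.239 for Cldn5, so the order of these mice is uncertain. The part of endothelial RNA in the Cldn5 level was not tested.

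Markers of blood lineages were read in the same way. Of 7 myeloid progenitor markers 2 rose in KO LSK cells, beside 1.74% of all genes. The mean of the list was 11.80 and 12.20 there against 11.14 and 11.84 in WT LSK mice, which overlapped. Of 6 megakaryocyte and platelet markers 2 rose and 1 fell in KO myeloid progenitors, beside 0.908% and 1.74% of all genes. The list means were 9.80 and 9.97 there against 9.19 and 9.22 in WT MP mice. In KO LSK cells 1 of the 6 rose and 1 fell, beside 1.74% and 2.9% of all genes. Of 5 basophil and mast markers, Mcpt8 rose and Prss34 fell in each population. Mcpt8 changed by 2.42 ± 0.18 in LSK cells and 1.46 ± 0.18 in myeloid progenitors, and Prss34 by -2.79 ± 0.19 and -1.73 ± 0.19. Of 7 dendritic markers 1 rose and 1 fell in KO LSK cells, and 0 passed by limma in myeloid progenitors (2 at an unadjusted p under 0.05). The part of these blood lineages in the levels of the 10 genes was not tested.

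The genes of most like pattern were ranked by the root mean square difference of the 8 mouse means. The mean of each gene over the mice was subtracted first. The ranking covered 10339 genes whose highest group mean lay above the median probe mean (7.2), so a gene could enter through its brightest group alone. For Cldn5 they were Lsr (0.50), Sult1a1 (0.55), Trnp1 (0.73), Wtip (0.74) and Rpl3l (0.75). Lsr, another of the 10 genes, was the nearest, with a smaller change in LSK cells (2.66 against 3.60) and a larger one in myeloid progenitors (1.25 against 0.48). Both genes were chosen with KO minus WT values of these arrays in view, so their closeness is not independent of that choice. For Ptprf they were Celf4 (0.50), Sulf2 (0.53), Podxl (0.55), Tcp11x2 (0.55) and Lrg1 (0.59). Podxl, which encodes the sialomucin podocalyxin, changed by 2.03 in LSK cells and 4.42 in myeloid progenitors, and Celf4, an RNA-binding protein gene, by 1.50 and 2.70. The ranking describes likeness over 8 mice and carries no test.

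**Figure D5:**
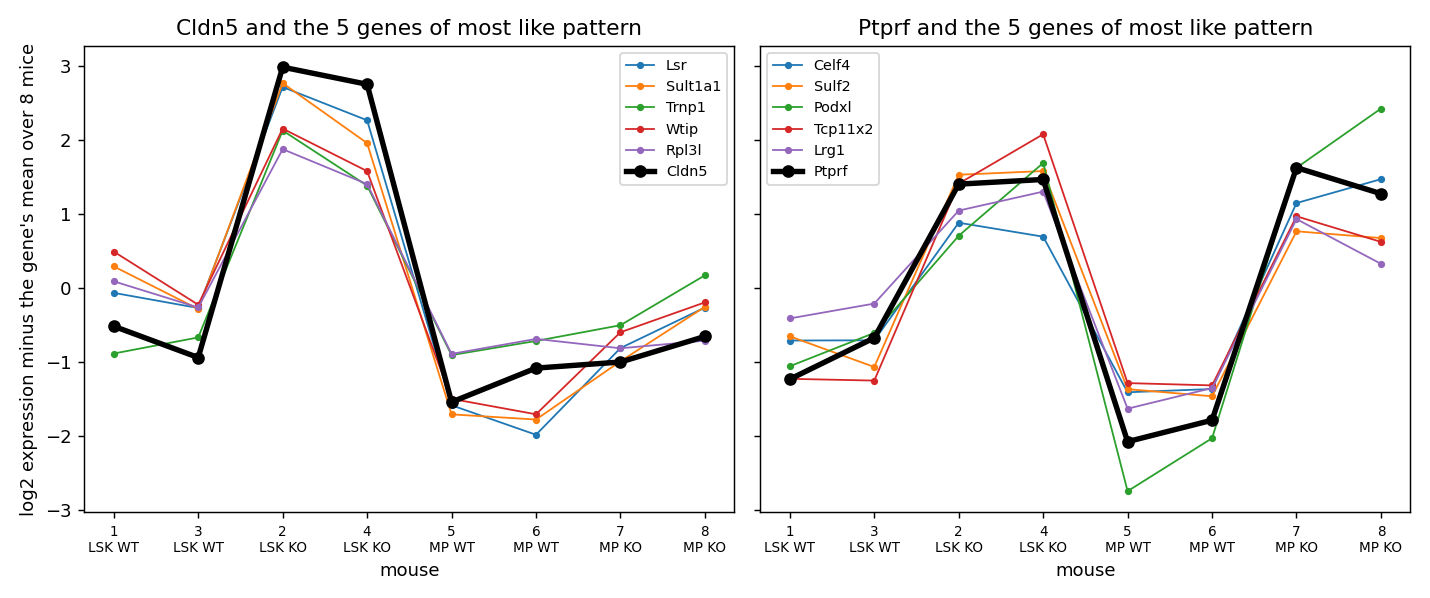
Mouse means of Cldn5 (left) and Ptprf (right) in black with their 5 genes of most like pattern in colour, each minus its own mean over the 8 mice (log2, vertical), for mice ordered by group (horizontal). The Cldn5 panel peaks in KO LSK mice 2 and 4, and the Ptprf panel is high in KO mice of both populations.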

How the data were processed

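Bone marrow RNA of 8 mice in 4 groups was read on 24 one-colour arrays. The deposited values are log2 expression made by the authors; values ran from 5.66 to 15.93 and sorted arrays lay within 0.0451 at any rank, from which the scale and a normalization between arrays were inferred. The submitters' processing notes list limma, with no version. Scanner and background correction: not given in the sources used here.

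Of 22439 probes, 18213 were named by current RefSeq symbol (GRCm38.p6), 2126 by synonym and 36 by the array's name alone, and 2064 had no symbol. The brightest probe stood for a gene. The mouse was the replicate: the 3 arrays of a mouse were averaged and the 8 means fitted in R 4.3.3 with limma 3.58.1 (lmFit with a coefficient per group, eBayes with trend and robust, 4 residual degrees of freedom, median prior 6.91), two-sided, Benjamini-Hochberg over all probes, threshold 0.05. The fit was tested on simulated data.

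The genes and all lists were chosen with earlier results of these data known. Named beside the 10 genes and Bap1 were list genes past the threshold in a KO minus WT contrast, up to 2 brightest genes of a list, and for Cldn5 and Ptprf the 5 genes of most like pattern. Cell type markers and genes named otherwise were picked after their values were seen. Alternatives covered the array structure, the fit, normalization, dim probes, probe choice, single mice and the Kdm5d signal.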

Additional observations from a re-analysis of the deposited data

Results flagged for a closer look

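Ocln on the second array of KO MP mouse 8 read 7.09, while the other 5 arrays of that group lay between 6.12 and 6.36. The gap was 0.757 of the range of the group, above the 95% critical value of Dixon's test for 6 arrays. Of 40 sets of 6 arrays (10 genes in 4 groups) this was the only one past the value, and chance gives about 1 in 20.

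The KO minus WT change of Cldn5 differed between LSK cells and myeloid progenitors by 3.12 ± 0.34, a difference that passed in the fit over all genes and that is not independent of the choice of the gene.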

How the results depend on the processing

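With all arrays and the mouse as a random block, 8 of the 10 genes passed in LSK cells in place of 5 and 4 in the difference in place of 1. That fit takes the same correlation between arrays of a mouse for all probes, so it can understate the error of genes whose mice differ more. Cldn15, which gained a call in LSK cells there, had an SD of 0.53 between mice of a group and 0.072 between arrays of a mouse. Adding the array number as a replicate block gave 8 and 4 again. Without trend and robust, 0 passed in the difference. Without mice 1 and 5, 3 passed between the WT populations in place of 6. For the 118 other genes the LSK count of 10 became 18 with all arrays, 18 with the replicate block, 6 with the compared groups alone, 6 without trend and robust, 6 above the 50th percentile of probe means (of 47 genes left), 4 without mice 1 and 5, and 3 to 13 without 1 mouse. The myeloid progenitor count of 3 became 12, 12 with the replicate block, and 5 above the 25th or 50th percentile. The difference count of 0 became 4, 3 with the replicate block, 1 above the 50th percentile, 1 with Kdm5d as a covariate, and 0 to 2 without 1 mouse. The count of 21 between the WT populations became 6 without mice 1 and 5 and 9 to 24 without 1 mouse. Without 1 mouse the sign changed for 8 results, none of them called: Ocln between the WT populations (-0.015 to 0.097) and in LSK cells (-0.142 to 0.063), Cdh1 in LSK cells (-0.165 to 0.308), in myeloid progenitors (-0.111 to 0.633) and in the difference (-0.562 to 0.182), and in myeloid progenitors Cldn15 (-0.431 to 0.078), Tjp1 (-0.572 to 0.279) and F11r (-0.107 to 0.339). The cause was not tested. Array numbers did not pair the mice: deviations of same-numbered arrays correlated with medians of 0.001, 0.0 and 0.019. Of 1039 values of single genes under 19 alternatives, 93 lost a call, 19 gained one and 11 changed sign.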
